A study of Mus musculus with 12 samples.

Results

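The brains of CD73ko mice taken 3 days after stroke surgery were compared with the brains of floxed mice after sham surgery, using 8 of the 12 mice and 757 of the 770 genes counted. The genes left out were the 13 housekeeping genes of the panel. All mice were male and C57BL/6 by their labels, and whole-brain total RNA was counted with the nCounter Glial Profiling Panel, in which barcoded probes bind transcripts of a fixed gene set and are counted without amplification. The 4 CD73ko mice had a transient occlusion of the middle cerebral artery (tMCAO) for 50 min, a stroke model in which a brain artery is blocked and then reopened. A group of 4 floxed (CD73flox) mice had the same occlusion, and the 4 floxed mice of the reference had a sham operation. The CD73ko and sham mice differ in genotype and in surgery together, and no CD73ko sham mice were analysed here, so within this pair of groups the part of each cannot be told apart. The labels give neither a Cre driver nor an age for these mice. The panel has no probe for Nt5e, the gene of CD73, and these counts therefore do not check the knockout.

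CD73 is a surface enzyme that turns extracellular AMP into adenosine, a signal that damps many immune cells. After a stroke, microglia (the resident phagocytes of the brain) and phagocytes from the blood clear dead cells and myelin, and astrocytes around the lesion become reactive and build up intermediate filaments. Phagocytes that take up such debris switch on a shared set of lysosomal, lipid-handling and secreted genes, often called the disease-associated microglia genes. In whole-brain RNA, fewer cells of a type and less RNA per cell cannot be told apart.

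The total count was between 724655 and 848853 in 11 libraries, and flox sham replicate 4 stood apart at 293589. The housekeeping genes lay between -0.0405 and 0.131 of their sham mean on the log2 scale after normalisation. The CD73ko tMCAO mice were at 0.0382 to 0.131, sham replicates 1 to 3 at -0.0405 to -0.0240 and sham replicate 4 at 0.104. These genes were thus not level between the groups, and calls under scaling to them are given below. Normalised counts are counts scaled to a common library size, and a level below the negative control probes of the panel is called below background. Defining genes of neurons (Snap25, Gad1), astrocytes (Gfap, Aqp4), oligodendrocytes (Mbp, Mog) and microglia (Csf1r, Cx3cr1) were above background in all 4 sham mice.

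Phagocyte, complement and reactive astrocyte genes rose in CD73ko tMCAO mice, and a set of neuronal genes fell by much smaller amounts. Of the 757 genes, 172 (22.7%) passed an adjusted p of 0.05 against sham mice by edgeR's quasi-likelihood test, 122 higher (16.1%) and 50 lower (6.61%). The genes that rose had a median log2 fold change of 1.12, and 70 of them were at least 2-fold higher. The genes that fell had a median of -0.255, none was at least 2-fold lower, and the largest fall was -0.78 for Eomes. All 4 CD73ko tMCAO mice lay on one side of all 4 sham mice in 200 genes (26.4%), of which 145 passed the test, 107 higher and 38 lower. The median log2 fold change over all 757 genes was 0.00129.

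Leaving out 1 mouse at a time separated the 2 directions. Of the 122 genes that rose, 90 passed in each of the 8 fits that left out 1 mouse, against 13 of the 50 that fell. Without flox sham replicate 4, the shallow library, 130 genes were higher and 99 lower. The number of lower genes was 93 without CD73ko replicate 1, 21 without replicate 2, 15 without replicate 3 and 28 without replicate 4. The balance of the 2 directions also moved with the scaling: 70.9% of the calls were higher with TMM scaling, 60.6% with DESeq2's size factors, 47.1% with median scaling (106 higher, 119 lower) and 46.3% with housekeeping scaling (101 higher, 117 lower). The 50 lower genes all passed under each of those 3 other scalings, and 101 of the 122 higher genes did. Those scalings moved the log2 fold changes downward, by a median of -0.0240, -0.0827 and -0.0919. A downward shift favours keeping lower calls and losing higher ones, so this count is no check of the falls. The share of higher calls was 56.8% with DESeq2's own test and 89.9% at an adjusted p of 0.01 (89 higher, 10 lower).

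**Figure D1:**
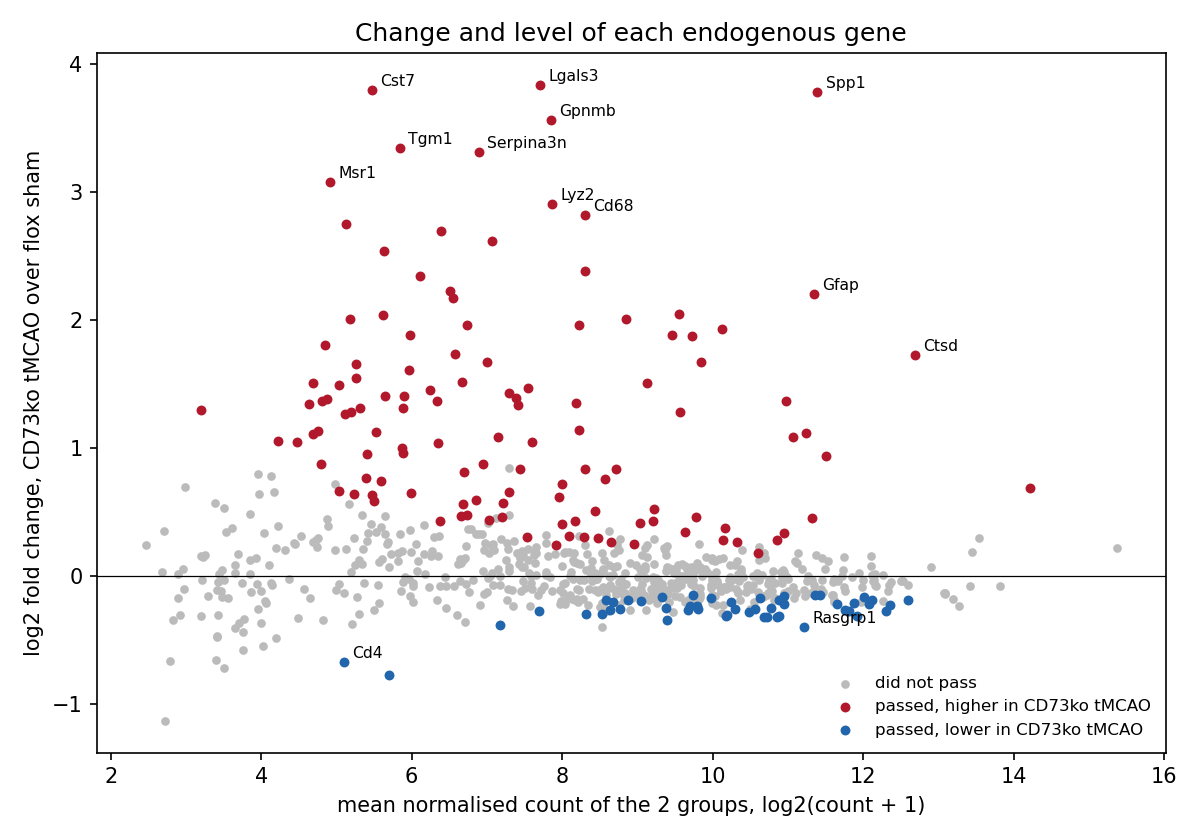
Log2 fold change of CD73ko tMCAO over flox sham (vertical axis) against the mean normalised count of the 2 groups as log2(count + 1) (horizontal axis), 1 point per endogenous gene. Red points are the 122 genes that rose, blue points the 50 that fell and grey points the rest. The rises reach 3.84 and the falls that passed reach -0.78.

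The 3 largest log2 fold changes were those of Lgals3, Cst7 and Spp1, all known from activated phagocytes. Spp1, which encodes osteopontin, a secreted matrix protein of activated phagocytes, counted 1879, 3418, 7087 and 7633 in CD73ko tMCAO mice 1 to 4, against 374, 365, 346 and 373 in sham mice. The sham mice sat within a narrow band and each CD73ko mouse was far above it, although the CD73ko mice themselves were spread widely. The log2 fold change was 3.78 ± 0.35 (SE, n = 4 each, adjusted p = 1.23e-06). Lgals3 is the gene of galectin-3, a sugar-binding protein of activated phagocytes. It counted 187, 323, 499 and 544 in CD73ko tMCAO mice, against 19.5, 26.1, 34.3 and 30.4 in sham mice. Its log2 fold change, 3.84 ± 0.32 (adjusted p = 8.67e-07), was the highest on the panel. Gpnmb, a membrane glycoprotein of lipid-laden phagocytes, counted 172, 328, 511 and 681 in CD73ko tMCAO mice, against 39.9, 30.8, 37.9 and 33 in sham mice (log2 fold change 3.56 ± 0.40, adjusted p = 8.95e-06). In each of these genes CD73ko replicate 1 was the lowest of its group and still above every sham mouse.

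Cst7, which encodes cystatin F, an inhibitor of lysosomal proteases, counted 53.4, 69.5, 80.6 and 119 in CD73ko tMCAO mice, against 3.55, 7.46, 5.41 and 7.61 in sham mice. All 4 sham values were below background, so the rise is given as at least 5.72-fold (adjusted p = 8.45e-07). Msr1, a scavenger receptor of macrophages, was likewise below background in all sham mice: it counted 27.2, 42.1, 72.2 and 69.7 in CD73ko tMCAO mice, against 6.2, 8.39, 5.41 and 2.54 in sham mice, at least 3.66-fold higher (adjusted p = 1.95e-05). Fcgr4, an activating receptor for IgG, counted 29.1, 53.7, 76.8 and 80.8 in CD73ko tMCAO mice, against 7.98, 10.3, 10.8 and 2.54 in sham mice, only 1 of which was above background. Its rise was at least 3.95-fold (adjusted p = 4.16e-05). These bounds set the sham level at the background limit of each library, and 14 of the 70 genes that rose at least 2-fold needed one. For 11 of the 14 the bound was itself at least 2-fold.

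Lyz2, the lysozyme gene of myeloid cells, counted 145, 346, 504 and 637 in CD73ko tMCAO mice, against 40.8, 43.8, 69.5 and 73.5 in sham mice (log2 fold change 2.91 ± 0.40, adjusted p = 6.11e-05). Cd68, a lysosomal membrane protein used to mark phagocytes, counted 349.6, 512, 640.1 and 708 in CD73ko tMCAO mice, against 74.5, 90.4, 74.9 and 68.5 in sham mice. The groups were far apart, and the log2 fold change was 2.82 ± 0.20 (adjusted p = 6.84e-07). Lilrb4a, an inhibitory receptor of myeloid cells, counted 85.3, 114, 176 and 203 in CD73ko tMCAO mice, against 18.6, 30.8, 20.7 and 15.2 in sham mice (2.70 ± 0.29, adjusted p = 6.32e-06). Without flox sham replicate 4 no log2 fold change of the 15 genes with the largest rises moved by more than 0.151, and the largest adjusted p among them was 0.00113.

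**Figure D2:**
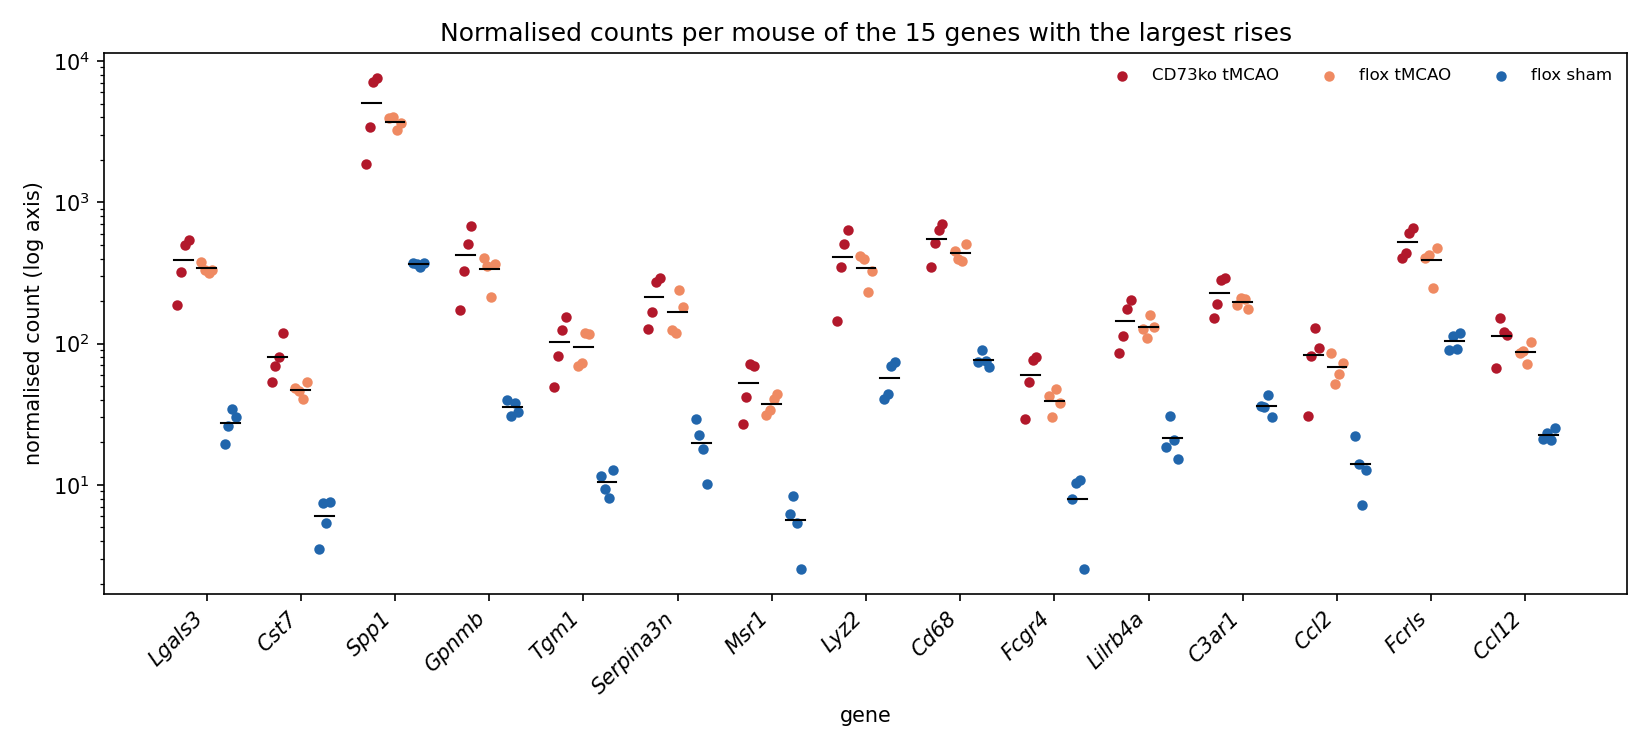
Normalised counts on a log axis of the 15 genes with the largest rises among those whose groups did not overlap, 1 point per mouse and a bar at each group mean, with CD73ko tMCAO on the left, flox tMCAO in the middle and flox sham on the right of each gene. The CD73ko tMCAO points lie above the sham points in all 15 genes and are spread more widely than the flox tMCAO points in genes such as Spp1.

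The start regions of these 15 genes were read for 2 short motifs because the genes rose together; the motifs were chosen after the values were seen. AGGAAGT is the core bound by PU.1 and other ETS factors, PU.1 being the factor that sets myeloid cell identity, and TGACTCA is bound by AP-1, the Fos and Jun dimer. Both strands were searched from 250 bases before to 50 after the start, and the 2 motifs do not overlap in letters. A RefSeq promoter (GRCm38.p6) was matched for 12 of the 15 genes. AGGAAGT was found in 6 of the 12, against 12.9% of 558 matched panel genes and 9.35% of 32851 mouse promoters, and TGACTCA in 3 of the 12, against 6.09% and 5.2%. A match is a description of the letters and not a site shown to be bound. Genes and motifs were both picked with these values known, so the shares do not test for an excess. A role of PU.1 or AP-1 in the rises was not tested. Part of the promoter of 5 genes is given 5′ to 3′ on the strand of the gene, with the motif or its reverse complement in capitals. The first 3 hold the AGGAAGT motif and the other two the TGACTCA motif.
Cst7 (chr2:150570312-150570398, plus strand): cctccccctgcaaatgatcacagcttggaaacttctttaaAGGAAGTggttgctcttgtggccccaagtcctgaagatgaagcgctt
Spp1 (chr5:104434959-104435045, plus strand): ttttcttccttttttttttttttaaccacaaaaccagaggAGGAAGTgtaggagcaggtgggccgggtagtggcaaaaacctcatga
Fcgr4 (chr1:171018862-171018948, plus strand): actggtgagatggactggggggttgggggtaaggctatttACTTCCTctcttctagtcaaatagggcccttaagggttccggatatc
Cd68 (chr11:69666273-69666359, minus strand): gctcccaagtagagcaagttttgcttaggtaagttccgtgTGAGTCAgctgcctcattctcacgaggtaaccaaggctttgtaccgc
C3ar1 (chr6:122856133-122856219, minus strand): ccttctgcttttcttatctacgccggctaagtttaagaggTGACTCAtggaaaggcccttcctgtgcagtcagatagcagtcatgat
The PU.1 gene itself, Spi1, counted 73.1, 108, 115 and 137 in CD73ko tMCAO mice, against 44.3, 29.8, 37 and 53.2 in sham mice (log2 fold change 1.46 ± 0.22, adjusted p = 0.000182). Jun counted 375, 428, 449 and 486 in CD73ko tMCAO mice, against 350.1, 359.9, 350.0 and 401 in sham mice, and the groups overlapped. Its log2 fold change of 0.26 ± 0.08 had an adjusted p of 0.0361, the 1 call among 4 immediate early and heat shock genes. The call was lost without CD73ko replicate 2 (adjusted p = 0.0713), 3 (0.101) or 4 (0.119), without sham replicate 1 (0.0913), 2 (0.106) or 3 (0.126), under DESeq2's size factors, median and housekeeping scaling, and in a fit of only the 2 groups. Fos counted 139.7, 149, 151 and 108 in CD73ko tMCAO mice, against 119, 99.8, 133 and 101 in sham mice, and did not pass (0.26 ± 0.19, adjusted p = 0.349).

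Disease-associated microglia genes, the set that includes most of those above, rose in 18 of 23 measured members and fell in none. The median log2 fold change was 1.38 against 0.00129 over all genes. Each list count in this report stands against 16.1% higher and 6.61% lower over all 757 genes. The mean over the list, as log2 above the sham mean, was between 1.11 and 1.90 in the CD73ko tMCAO mice and between -0.118 and 0.084 in the sham mice, so the groups were apart. Tyrobp, the adaptor that signals for Trem2, rose by 2.01 ± 0.19 and Trem2, a lipid-sensing receptor of microglia, by 1.73 ± 0.21 on the log2 scale (adjusted p = 1.25e-06 and 2.36e-05). Not every gene of the set moved. Apoe, the lipid carrier made by astrocytes and microglia, counted 4258, 4897, 4694 and 4767 in CD73ko tMCAO mice, against 4429, 4285, 4681 and 3243 in sham mice, and did not pass (0.16 ± 0.09, adjusted p = 0.237). Itgax, the integrin subunit CD11c, was above background in no CD73ko tMCAO mouse and in 1 sham mouse, so no change could be read. Axl, a receptor for dying cells, counted 245, 277, 255 and 270.3 in CD73ko tMCAO mice, against 215, 231, 221 and 218 in sham mice (0.24 ± 0.07, adjusted p = 0.0306). The Axl call was lost without CD73ko replicate 2 (adjusted p = 0.0938), 3 (0.0564) or 4 (0.0868), without sham replicate 1 (0.0821), 2 (0.0549) or 3 (0.0876), under median and housekeeping scaling, and with DESeq2's test. The names Tyrobp, Trem2, Apoe and Itgax fall outside the naming rule and were chosen after their values were seen.

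Genes that mark resting microglia rose in 12 of 22 measured members and fell in none, by less (median log2 fold change 0.514). The list mean was between 0.515 and 0.815 above sham in the CD73ko tMCAO mice and between -0.0567 and 0.0676 in the sham mice. Fcrls, an Fc receptor-like gene of microglia, counted 403, 438, 607 and 663 in CD73ko tMCAO mice, against 90.4, 113, 92 and 119 in sham mice, and had the largest rise of the list (2.38 ± 0.21, adjusted p = 1.2e-06). Csf1r, the receptor that microglia need to survive, counted 469, 542, 537 and 606 in CD73ko tMCAO mice, against 334, 319.8, 279.6 and 259 in sham mice (0.84 ± 0.12, adjusted p = 0.000107). Tmem119, one of the most specific markers of resting microglia and chosen after its values were seen, counted 33.7, 37.9, 54.4 and 32.5 in CD73ko tMCAO mice, against 44.3, 28, 33.4 and 43.1 in sham mice. The Tmem119 groups overlapped and the gene did not pass (0.12 ± 0.23, adjusted p = 0.761).

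All 5 measured genes of the myeloid regulator and pan-leukocyte list rose, within a range of 1.46 to 1.67 on the log2 scale. Itgam, the CD11b subunit of complement receptor 3, counted 138, 183, 205 and 249 in CD73ko tMCAO mice, against 62, 58.7, 63.1 and 58.3 in sham mice (1.67 ± 0.22, adjusted p = 4.81e-05). Aif1, which encodes the microglial protein Iba1, counted 199.6, 269.5, 307 and 306 in CD73ko tMCAO mice, against 99.3, 86.7, 85.7 and 134 in sham mice (1.47 ± 0.27, adjusted p = 0.00076). Irf8, a transcription factor of the myeloid lineage, rose by 1.51 ± 0.26 (adjusted p = 0.000477).

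Genes listed for monocytes, macrophages and neutrophils moved unequally. Of the 4 measured monocyte and macrophage genes, 3 rose: Msr1 as above, Cd84, a leukocyte adhesion receptor (2.17 ± 0.25, adjusted p = 1.39e-05), and Stab1, a scavenger receptor of macrophages (1.88 ± 0.21, adjusted p = 9.27e-06). The list mean was between 1.29 and 2.26 above sham in the CD73ko tMCAO mice and between -0.233 and 0.128 in the sham mice. The other measured member, Cd163, did not pass (log2 fold change 0.309). The monocyte genes Ccr2 and Ly6c2 of the list were not measured. Microglia can make the measured transcripts too, so they do not mark blood-derived cells alone. The part of either cell type in the rises was not tested. The panel holds 1 neutrophil marker of the list, Csf3r, the receptor of G-CSF. It counted 32.8, 37.9, 52.5 and 30.6 in CD73ko tMCAO mice, against 30.1, 20.5, 20.7 and 20.3 in sham mice, and did not pass (0.72 ± 0.26, adjusted p = 0.0583). Without sham replicate 1, which stood apart from the other three, Csf3r passed (0.90, adjusted p = 0.0457).

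Lymphocyte and NK cell genes were mostly at the floor of the assay, with 7 of 22 measured members above background. The list mean was between -0.353 and 0.112 in the CD73ko tMCAO mice and between -0.196 and 0.241 in the sham mice, so the groups overlapped. Cd8a, Gzmb and Nkg7, defining genes of cytotoxic lymphocytes named after their values were seen, were above background in at most 2 of the 4 mice of any group. Cd4, the co-receptor of helper T cells, which some myeloid cells also carry, counted 20.6, 30.5, 29.1 and 23.2 in CD73ko tMCAO mice, against 47, 39.2, 40.6 and 35.5 in sham mice (-0.68 ± 0.20, adjusted p = 0.0242). The Cd4 call was lost without CD73ko replicate 4 (adjusted p = 0.0663) or sham replicate 1 (0.0821). Lag3, a checkpoint receptor also found in microglia, was higher by 0.66 ± 0.18 (adjusted p = 0.0177), and its call was lost without CD73ko replicate 3 (0.058) or sham replicate 3 (0.0523). Eomes, a T-box factor of cytotoxic lymphocytes and of cortical progenitors, counted 37.5, 29.5, 60.9 and 24.1 in CD73ko tMCAO mice, against 68.3, 63.4, 73.1 and 50.7 in sham mice (-0.78 ± 0.24, adjusted p = 0.0297). The Eomes groups overlapped, and its call was lost without CD73ko replicate 2 (0.0885) or 4 (0.0885) or sham replicate 1 (0.0725), 2 (0.0505) or 3 (0.0724).

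Lysosomal genes rose in all 10 measured members, with a median log2 fold change of 1.26 and a list mean between 0.93 and 1.53 above sham in the CD73ko tMCAO mice. Ctsd, which encodes cathepsin D, the main aspartic protease of the lysosome, counted 7370.1, 8641, 11722 and 12751 in CD73ko tMCAO mice, against 3271, 3165, 3085 and 2688 in sham mice (1.73 ± 0.16, adjusted p = 1.2e-06). Ctss, cathepsin S, which trims the chaperone of MHC class II in phagocytes, counted 916, 1331, 1586 and 1760.0 in CD73ko tMCAO mice, against 410.4, 436, 471 and 434 in sham mice (1.67 ± 0.15, adjusted p = 1.2e-06). Grn, the progranulin gene needed for lysosomal function, counted 668, 781, 927 and 917 in CD73ko tMCAO mice, against 316, 262, 281 and 304 in sham mice (1.51 ± 0.13, adjusted p = 1.2e-06). Every CD73ko tMCAO mouse was above every sham mouse for these 3 proteins' genes. Among scavenger and efferocytosis receptors and their ligands, 4 of 7 rose, and the median was lower, at 0.362. Pros1, protein S, which bridges dying cells to the receptor Mertk, rose by 1.43 ± 0.19 (adjusted p = 5.23e-05).

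Complement genes rose in 8 of 9 measured members, with a median of 1.87 and a list mean between 1.07 and 1.74 above sham in the CD73ko tMCAO mice. C1q, the first component of the classical pathway, has 3 chains, each with its own gene, and all 3 genes rose. C1qa counted 927, 1294, 1444 and 1642 in CD73ko tMCAO mice, against 362, 357, 375 and 349.9 in sham mice (1.87 ± 0.15, adjusted p = 7.05e-07). C1qc counted 850.1, 1081, 1353 and 1545 in CD73ko tMCAO mice, against 305, 305, 283 and 266 in sham mice (2.05 ± 0.16, adjusted p = 7.24e-07). The probe C4a/b, which reads the 2 near-identical C4 genes together, counted 375, 484, 535 and 527 in CD73ko tMCAO mice, against 152, 132, 111 and 76.1 in sham mice (1.96 ± 0.18, adjusted p = 1.2e-06). C3ar1, the receptor for the C3a fragment, counted 151, 192, 281 and 293 in CD73ko tMCAO mice, against 36.3, 35.4, 43.3 and 30.4 in sham mice (2.62 ± 0.21, adjusted p = 7.24e-07). Itgax was the member that did not rise.

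Fc and pattern recognition receptors rose in 6 of 7 measured members (median 1.13). Fcgr1, the high-affinity receptor for IgG, counted 113, 157, 168 and 155 in CD73ko tMCAO mice, against 31.9, 31.7, 28 and 38 in sham mice (2.23 ± 0.20, adjusted p = 1.2e-06). Fcgr genes are close paralogues, and probes may not separate them fully. Cd14, the co-receptor for lipopolysaccharide, rose by 1.31 ± 0.23 (adjusted p = 0.000579). Tlr7, a sensor of single-stranded RNA, counted 26.2, 40, 41.2 and 38.1 in CD73ko tMCAO mice, against 20.4, 14.9, 17.1 and 10.1 in sham mice, of which 2 were above background. It was at least 2.03-fold higher (adjusted p = 0.00198).

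Cytokine and chemokine genes rose in 6 of 14 measured members, and 9 of the 14 were above background. Ccl2, which recruits monocytes, counted 30.9, 81.1, 128 and 93.8 in CD73ko tMCAO mice, against 22.2, 14, 7.22 and 12.7 in sham mice, of which 1 was above background, and it was at least 4.78-fold higher (adjusted p = 0.000323). Ccl12, a related mouse chemokine, counted 67.5, 152, 121 and 114 in CD73ko tMCAO mice, against 21.3, 23.3, 20.7 and 25.4 in sham mice (2.34 ± 0.24, adjusted p = 3.44e-06). Ccl3 rose by 1.65 ± 0.26 (adjusted p = 0.000223). Tgfb1, which encodes the anti-inflammatory cytokine TGF-β1, counted 127, 135, 162 and 174 in CD73ko tMCAO mice, against 62.9, 58.7, 36.1 and 50.7 in sham mice (1.51 ± 0.17, adjusted p = 1.21e-05). Il1b, Il6 and Il10, chosen after their values were seen, were above background in at most 2 of the 4 mice of any group, so no change could be read for these cytokines. Il1a is counted among the 6 although it was above background in 2 CD73ko tMCAO mice and in no sham mouse. In the NF-kB and inflammasome list none of 3 measured genes passed, the smallest p being that of Il18, an inflammasome cytokine (0.17 ± 0.10, adjusted p = 0.243).

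Antigen presentation genes rose in 5 of 7 measured members (median 0.84). B2m, the light chain of MHC class I, counted 2459.5, 3011, 3196 and 2991 in CD73ko tMCAO mice, against 1285, 1206, 1423 and 1618 in sham mice (1.08 ± 0.10, adjusted p = 1.65e-06). H2-D1, a class I heavy chain, rose by 0.83 ± 0.11 (adjusted p = 6.08e-05), though H2 genes resemble each other and may share probes. Psmb8, a subunit of the immunoproteasome, counted 61.9, 84.2, 103 and 93.8 in CD73ko tMCAO mice, against 33.7, 30.8, 36.1 and 25.4 in sham mice (1.40 ± 0.19, adjusted p = 6.37e-05). Tap1, the peptide transporter, rose by 0.95 ± 0.22 (adjusted p = 0.00504). Of 8 measured interferon response genes 4 rose. Ifit3, an antiviral effector, counted 185, 298, 227 and 181 in CD73ko tMCAO mice, against 131, 123, 125 and 114 in sham mice (0.84 ± 0.15, adjusted p = 0.00075). Gbp2, a guanylate-binding GTPase, was at least 1.59-fold higher (adjusted p = 0.00503).

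**Figure D3:**
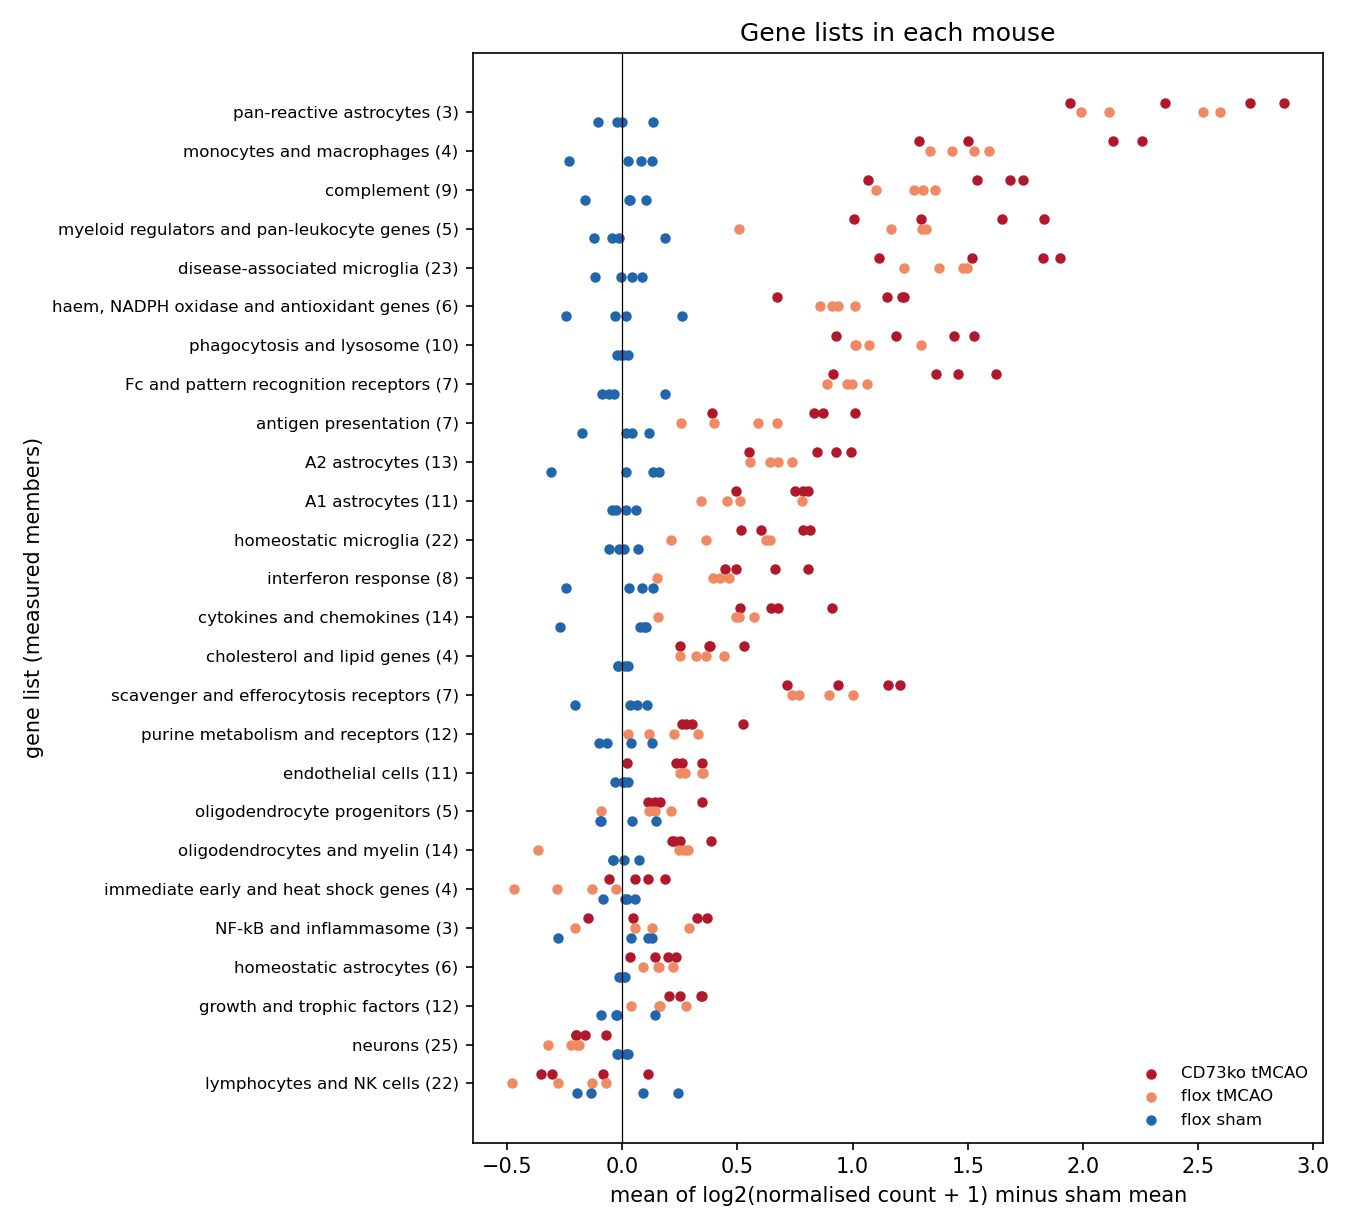
Mean over the measured members of each gene list of log2(normalised count + 1) minus the sham mean, 1 point per mouse, for lists with at least 3 measured members (number in brackets), ordered by the median log2 fold change of CD73ko tMCAO over flox sham. Within each list CD73ko tMCAO (red) is drawn above flox tMCAO (orange) and flox sham (blue). Disease-associated microglia and complement stand at 1.07 to 1.90 in CD73ko tMCAO mice, and neurons lie between -0.202 and -0.072.

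Reactive astrocyte genes rose strongly. All 3 measured pan-reactive genes passed, with a list mean between 1.94 and 2.88 above sham in the CD73ko tMCAO mice. Gfap, the intermediate filament protein of astrocytes, counted 3054, 4293, 4721 and 4957 in CD73ko tMCAO mice, against 846, 856, 845 and 1199 in sham mice, where replicate 4 was the highest (2.20 ± 0.17, adjusted p = 7.05e-07). Vim, vimentin, counted 1233, 1571, 1912 and 2316 in CD73ko tMCAO mice, against 438, 422, 424 and 606 in sham mice (1.93 ± 0.18, adjusted p = 1.2e-06). Serpina3n, a secreted protease inhibitor of reactive astrocytes, counted 127, 168, 272 and 293 in CD73ko tMCAO mice, against 29.3, 22.4, 18 and 10.1 in sham mice (3.31 ± 0.35, adjusted p = 5.55e-06).

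The 2 published astrocyte programmes, A1 (first described after endotoxin) and A2 (first described after ischaemia), both rose in part. Of the A1 genes 9 of 11 rose (median 0.648), a count that was 5 without CD73ko replicate 2, without CD73ko replicate 3 or without sham replicate 3. Srgn, a proteoglycan core protein, counted 158, 213, 294 and 309 in CD73ko tMCAO mice, against 96.6, 96, 98.3 and 93.8 in sham mice (1.34 ± 0.19, adjusted p = 0.000101). Of the A2 genes 8 of 13 rose (median 0.72). Tgm1, a transglutaminase, counted 49.7, 81.1, 125 and 155 in CD73ko tMCAO mice, against 11.5, 9.32, 8.12 and 12.7 in sham mice, all below background, and was at least 6.95-fold higher (adjusted p = 1.73e-05). Ptx3, a secreted pentraxin, was at least 2.97-fold higher (adjusted p = 0.000709), and Stat3, the factor that drives much of astrocyte reactivity, rose by 0.75 ± 0.11 (adjusted p = 0.000107). Several genes of both programmes, such as Cd14 and Psmb8, are also made by phagocytes. Of 6 measured genes of resting astrocytes 1 rose, Aqp4, the water channel of astrocyte endfeet, which counted 981, 1118, 1088 and 911 in CD73ko tMCAO mice, against 861, 809, 701 and 573 in sham mice (0.46 ± 0.11, adjusted p = 0.00794). The count for resting astrocytes was 2 without sham replicate 4. Over all 757 genes, 16.1% rose, so 1 of 6 is near the share of the panel.

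Neuronal genes fell in 9 of 25 measured members and rose in none, with a median log2 fold change of -0.152. The list mean was between -0.202 and -0.072 in the CD73ko tMCAO mice and between -0.022 and 0.0234 in the sham mice. This small shift was without overlap under TMM scaling. The nearest mice were CD73ko replicate 1 (-0.072) and sham replicate 4 (-0.022). Their housekeeping genes lay unequally above the sham mean, at 0.0382 and 0.104. Whether the groups stay apart under housekeeping scaling was not tested. The count of 9 was 3 without CD73ko replicate 2, 2 without replicate 3, 3 without replicate 4 and 5 without sham replicate 1. Rasgrp1, an activator of Ras with high expression in striatal neurons, counted 2295, 1929.7, 1841 and 2103 in CD73ko tMCAO mice, against 2803, 2739, 2583 and 2675 in sham mice. Its log2 fold change of -0.40 ± 0.07 (adjusted p = 0.000577) was the largest fall of the list. Gad1, the enzyme that makes GABA, counted 1368, 1238, 1209.8 and 1343 in CD73ko tMCAO mice, against 1603, 1441, 1692 and 1532 in sham mice (-0.28 ± 0.06, adjusted p = 0.00543). Gria2, an AMPA receptor subunit, was lower by a log2 change of -0.17 ± 0.05 (adjusted p = 0.0278), a call lost without CD73ko replicate 2 (0.0885), 3 (0.0937) or 4 (0.0507) or sham replicate 1 (0.0796) and in a fit of only the 2 groups.

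Both measured genes of striatal projection neurons, cells of the core territory of the occluded artery, fell. Adcy5, the main adenylyl cyclase of the striatum, counted 781, 849, 779 and 860.0 in CD73ko tMCAO mice, against 956, 971, 955 and 958 in sham mice (-0.23 ± 0.05, adjusted p = 0.00509). Drd1, the D1 dopamine receptor, counted 311, 353, 312 and 344 in CD73ko tMCAO mice, against 377, 391, 426 and 441 in sham mice (-0.30 ± 0.08, adjusted p = 0.0162). The Drd1 call was lost without CD73ko replicate 3 (adjusted p = 0.0564).

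The other genes among the 15 largest falls were synaptic and excitability genes that are in no list. Slc8a1, a sodium-calcium exchanger, counted 1584, 1414, 1408 and 1441 in CD73ko tMCAO mice, against 1849, 1874, 1744 and 1828 in sham mice (-0.32 ± 0.05, adjusted p = 0.00049). Dnm3, a dynamin of synapses, counted 1583, 1484, 1525 and 1434 in CD73ko tMCAO mice, against 1912, 1944, 1720.2 and 1957 in sham mice (-0.32 ± 0.06, adjusted p = 0.000888). Both genes separated the groups by a gap of over 100 normalised counts. Cntnap1, the axonal protein of the paranode, was lower by a log2 change of -0.35 ± 0.08 (adjusted p = 0.00368), Unc80, a part of the sodium leak channel, by -0.31 ± 0.06 (adjusted p = 0.00228), and Dock3, an activator of Rac in neurons, by -0.31 ± 0.07 (adjusted p = 0.00509). These 5 genes, Rasgrp1 and Gad1 passed in every fit that left out 1 mouse.

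Other falls among the 15 lost their call when single mice were left out. Serpini1, neuroserpin (-0.32 ± 0.09, adjusted p = 0.0177), lost its call without CD73ko replicate 3 (0.0634). For Chn1, a neuronal Rac GTPase-activating protein (-0.28 ± 0.08, adjusted p = 0.027), the call went without CD73ko replicate 2 (0.062), 3 (0.0967) or 4 (0.0537) and in a fit of only the 2 groups. Grin3a, an NMDA receptor subunit (-0.30 ± 0.09, adjusted p = 0.025), did not pass without CD73ko replicate 2 (0.0521), 3 (0.0515) or 4 (0.0812) or sham replicate 1 (0.0821). Camk4, a calcium-dependent kinase of neurons (-0.27 ± 0.09, adjusted p = 0.0488), did not pass without CD73ko replicate 2 (0.0809), 3 (0.155) or 4 (0.0663) or sham replicate 1 (0.0705), 2 (0.0889) or 4 (0.0659).

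Among the lists of other resident cells, the oligodendrocyte and myelin list had a mean between 0.215 and 0.383 above sham in the CD73ko tMCAO mice. In the sham mice it was between -0.0417 and 0.0743, a small shift without overlap under TMM scaling. All 14 measured members had a log2 fold change above 0 (0.121 to 0.414, median 0.259), and 1 passed the test, Mog, a myelin surface glycoprotein, which counted 813, 1009, 896 and 832 in CD73ko tMCAO mice, against 690.5, 706, 695 and 705 in sham mice (0.34 ± 0.08, adjusted p = 0.00564); the count was 2 without sham replicate 4. None of 11 endothelial genes passed (median 0.28), and Pecam1, the junction protein CD31, had the smallest p (0.48 ± 0.20, adjusted p = 0.0964). Without CD73ko replicate 1 the endothelial count was 2 and Pecam1 passed (0.59, adjusted p = 0.0284). Of 5 oligodendrocyte progenitor genes Cspg4, the NG2 proteoglycan (0.43 ± 0.13, adjusted p = 0.0297), and Bcas1, a gene of early myelinating cells (0.28 ± 0.10, adjusted p = 0.0486), were higher with overlapping groups. Both of these calls were lost under median and housekeeping scaling and in 6 of the 8 fits that left out 1 mouse, and that of Bcas1 also with DESeq2's size factors and test, with limma and with either filter on low counts. The adjusted p of Cspg4 and of Bcas1 was 0.079 and 0.0748 without CD73ko replicate 2, 0.101 and 0.154 without replicate 3, and 0.0565 and 0.126 without replicate 4. Leaving out a sham mouse gave 0.0644 and 0.109 without replicate 1, 0.0832 and 0.177 without replicate 2, and 0.12 and 0.126 without replicate 3. No member of the mural cell and fibroblast list was measured.

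The purine genes bear on the pathway in which CD73 acts, where CD39 breaks ATP and ADP down to AMP and CD73 takes AMP to adenosine. Of 12 measured members 3 were higher and none lower (median 0.325), a count that was 1 without CD73ko replicate 3 or without sham replicate 1. The share higher over all 757 genes was 16.1%, and the count of 3 is not read as a result about this list. Entpd1, the gene of CD39, counted 108, 129, 115 and 129 in CD73ko tMCAO mice, against 72.7, 82, 85.7 and 88.7 in sham mice (0.56 ± 0.12, adjusted p = 0.00268). P2ry6, a UDP receptor that prompts microglia to engulf, counted 15.9, 31.6, 38.4 and 26.9 in CD73ko tMCAO mice, against 8.86, 14, 16.2 and 17.7 in sham mice, of which 2 were above background. It was at least 1.65-fold higher (adjusted p = 0.0176), and the call was lost without CD73ko replicate 3 (0.066) or sham replicate 1 (0.0686). P2ry12, the ADP receptor of resting microglia, counted 267, 288, 321 and 313 in CD73ko tMCAO mice, against 193, 171, 178 and 256 in sham mice (0.61 ± 0.21, adjusted p = 0.0467). The P2ry12 call was lost without CD73ko replicate 2 (0.083), 3 (0.12) or 4 (0.0942), without sham replicate 1 (0.0939), 2 (0.132) or 3 (0.125), under DESeq2's size factors and housekeeping scaling, and with limma. The adenosine receptors Adora1, Adora2b and Adora3 did not pass, with log2 fold changes of 0.10, 0.25 and 0.66. They were chosen with their values in view.

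Genes of haem breakdown and oxidant production rose in 4 of 6 measured members (median 1.33). Hmox1, haem oxygenase 1, counted 76.9, 187, 197 and 204 in CD73ko tMCAO mice, against 41.7, 42.9, 37 and 55.8 in sham mice (1.96 ± 0.28, adjusted p = 7.87e-05); CD73ko replicate 1 was far below its group and above all sham mice. Tspo, the mitochondrial protein imaged as a sign of glial activation, counted 32.8, 56.8, 58.1 and 54.8 in CD73ko tMCAO mice, against 22.2, 14, 26.2 and 20.3 in sham mice (1.28 ± 0.23, adjusted p = 0.000651). Ncf1, a subunit of the phagocyte NADPH oxidase, rose by 1.41 ± 0.25 (adjusted p = 0.000727), and Cybb, its catalytic subunit, was at least 2.43-fold higher (adjusted p = 0.00145).

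Proliferation and growth genes were few on the panel. Mki67, a protein of dividing cells, counted 52.5, 56.8, 105 and 95.7 in CD73ko tMCAO mice, against 15.1, 25.2, 18 and 15.2 in sham mice (2.04 ± 0.28, adjusted p = 5.9e-05). Ccnb1, cyclin B1, counted 56.2, 55.8, 99.3 and 98.4 in CD73ko tMCAO mice, against 43.4, 49.4, 31.6 and 30.4 in sham mice (0.96 ± 0.25, adjusted p = 0.0128), and lost its call without CD73ko replicate 3 (0.0512). For both genes CD73ko replicates 3 and 4 stood above replicates 1 and 2. Of 12 growth and trophic factor genes 3 were higher, against 16.1% of all 757 genes. The count was 1 (Tgfb1) without CD73ko replicate 3 or 4 or without sham replicate 1, 2 or 3. Csf1, the growth factor of microglia, counted 269, 304, 383 and 347 in CD73ko tMCAO mice, against 227, 232, 222 and 309 in sham mice (0.43 ± 0.13, adjusted p = 0.0239). Its adjusted p was 0.0967 and 0.0657 without CD73ko replicates 3 and 4, and 0.0735, 0.0831 and 0.0934 without sham replicates 1, 2 and 3. Tgfbr1, a TGF-β receptor, was higher by 0.47 ± 0.14 (adjusted p = 0.0251). Its adjusted p was 0.07, 0.0931 and 0.0502 without CD73ko replicates 2, 3 and 4, and 0.0821, 0.0792 and 0.0712 without sham replicates 1, 2 and 3, and the call was also lost under housekeeping scaling.

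Of 4 lipid genes 2 were higher. Fabp5, a fatty acid carrier, counted 166, 189, 221 and 189 in CD73ko tMCAO mice, against 129, 116, 124 and 114 in sham mice (0.65 ± 0.11, adjusted p = 0.000382). Abca1, a cholesterol exporter, was higher by 0.41 ± 0.12 (adjusted p = 0.02), a call lost without CD73ko replicate 3 (0.066) or 4 (0.0663) or sham replicate 2 (0.068) or 3 (0.0934). Bax, a pro-apoptotic gene, rose by 0.44 ± 0.11 (adjusted p = 0.00873), the 1 call among 2 DNA damage and apoptosis genes. Neither hypoxia gene passed, and Vegfa, a growth factor of vessels, had the smaller p (-0.15 ± 0.12, adjusted p = 0.38).

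Among the genes that rose, CD73ko replicate 1 was most often the lowest of its group. Over the 107 genes that rose without overlap, this mouse was the lowest in 94. The highest was replicate 4 in 57, replicate 3 in 32 and replicate 2 in 15. Over the 15 genes with the largest rises, replicate 1 was lowest in all 15, at a median of -0.829 from the group mean on the log2 scale, and the medians of replicates 2, 3 and 4 were -0.188, 0.417 and 0.524. Of the flox tMCAO mice, replicate 3 was lowest in 57 of the same 107 genes and replicate 4 highest in 56. The median SD of log2 normalised counts over the 107 genes was 0.315 in CD73ko tMCAO mice, 0.221 in flox tMCAO mice and 0.201 in sham mice, and the CD73ko SD was the larger of the 2 tMCAO groups in 70 of the 107. Over all genes above background the order was the other way, at 0.096, 0.121 and 0.157 for the same 3 groups.

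Among the genes that passed against sham mice, those with the widest spread among CD73ko tMCAO mice were Spp1, Lyz2, Ccl2, Ms4a4a and Gpnmb, all genes of phagocytes or their recruitment. Ms4a4a, a membrane protein of macrophages, counted 22.5, 45.3, 53.4 and 100.3 in CD73ko tMCAO mice, against 19.5, 18.6, 18 and 20.3 in sham mice (1.55 ± 0.49, adjusted p = 0.0361). The Ms4a4a call was lost without CD73ko replicate 2 (0.0521), 3 (0.0696) or 4 (0.132) and without sham replicate 1 (0.0803), 2 (0.0831) or 3 (0.0854).

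**Figure D4:**
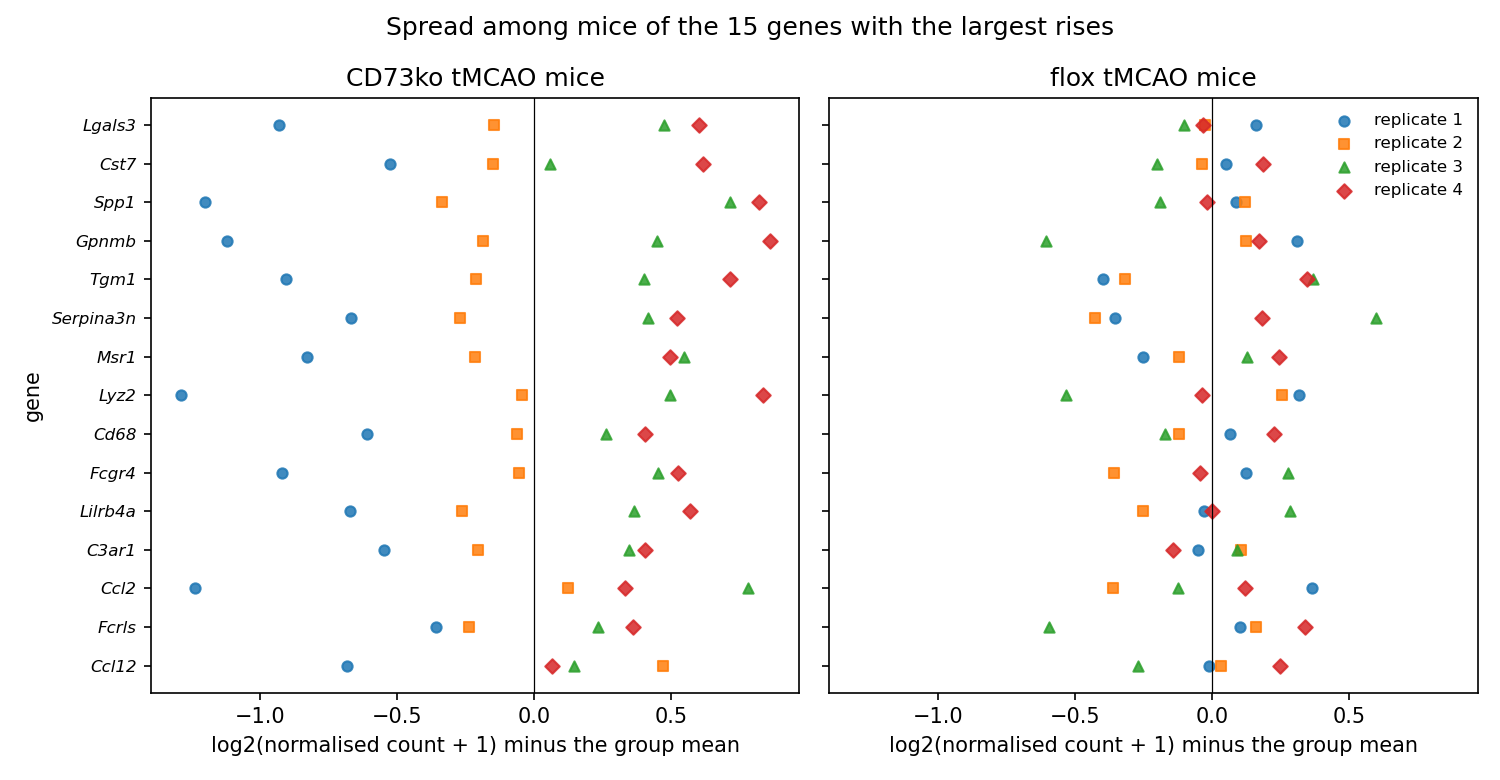
Deviation of each mouse from the mean of its own group, as log2(normalised count + 1), for the 15 genes with the largest rises, with CD73ko tMCAO mice on the left and flox tMCAO mice on the right. Each marker shape and colour is 1 replicate. CD73ko replicate 1 is lowest in all 15 genes, and CD73ko replicate 4 is highest in 12.

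The floxed mice with the same occlusion give the values of surgery without the knockout. They share the 4 sham mice with the comparison above, so the 2 sets of fold changes are not independent and are given side by side only. Against sham, 167 genes (22.1%) passed in flox tMCAO mice, 107 higher and 60 lower. The 15 genes with the largest rises in CD73ko tMCAO mice had log2 fold changes of 2.34 to 3.84 there and of 1.93 to 3.65 in flox tMCAO mice. Spp1 counted 3939, 4035, 3251 and 3664 in flox tMCAO mice (3.35 ± 0.35 over sham), values inside the range of the CD73ko tMCAO mice. Gfap counted 3492, 3013, 4388 and 4403 in flox tMCAO mice (2.05 ± 0.17 over sham). Rasgrp1 counted 2111, 2069, 1906 and 1849 in flox tMCAO mice (-0.44 ± 0.07 over sham).

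Set directly against flox tMCAO mice, no gene passed in CD73ko tMCAO mice (0%), with 47 of 757 at an unadjusted p under 0.05 and a smallest adjusted p of 0.747. No gene passed in any alternative run for this comparison either, DESeq2 and limma included. The 15 differences for the genes with the largest rises were 0.13 to 0.77 on the log2 scale, all positive, and none passed; choosing genes for large rises in CD73ko mice favours that sign. Their 95% intervals reached a median of 0.567 to either side, so differences of that size could be missed. The interval of the difference was -0.31 to 0.69 for Lgals3, -0.21 to 1.07 for Spp1, -0.18 to 0.49 for Gfap and -0.11 to 0.19 for Rasgrp1. These intervals do not show that the 2 genotypes are alike. For the 15 largest falls the differences were between -0.103 and 0.0663.

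The 5 smallest p-values of the direct comparison belonged to Psmb8, Cst7, Tlr7, Fos and Adrb1. Psmb8 counted 65.6, 50.7, 42.7 and 59.9 in flox tMCAO mice, and the log2 difference, CD73ko minus flox tMCAO, was 0.65 (95% interval 0.27 to 1.02). Cst7 counted 48.8, 45.8, 40.7 and 53.6 in flox tMCAO mice, with a difference of 0.77 (0.31 to 1.23). Tlr7 counted 22.2, 20.5, 29.1 and 17.9 in flox tMCAO mice, with a difference of 0.69 (0.24 to 1.14). Fos and Adrb1, the β1 adrenergic receptor, had differences of 0.60 and 0.35, and neither passed against sham mice. All 5 had an adjusted p of 0.747. Tlr7 and Aqp4 passed against sham in CD73ko tMCAO mice, but in flox tMCAO mice they had log2 fold changes over sham of 0.44 and 0.19 that did not pass. The differences between the 2 tMCAO groups, 0.69 and 0.27, did not pass either.

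**Figure D5:**
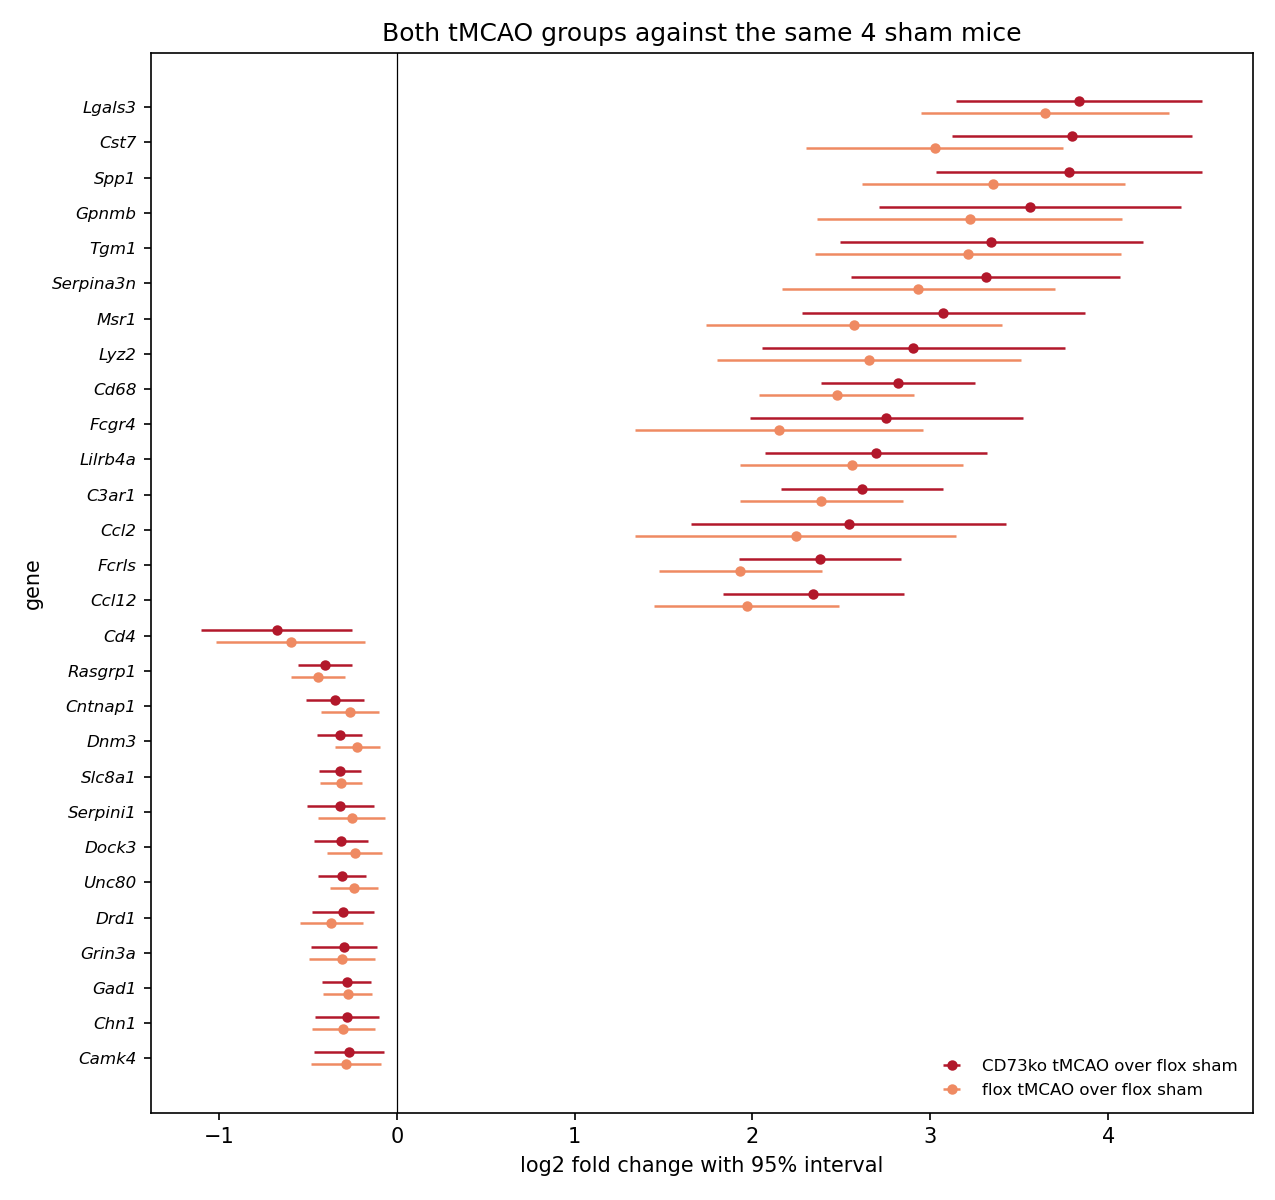
Log2 fold change over flox sham with its 95% interval for the 15 genes with the largest rises and 13 of the 15 with the largest falls among non-overlapping genes, with CD73ko tMCAO (red) above flox tMCAO (orange) for each gene. Both sets of values use the same 4 sham mice. The rises run from 2.34 to 3.84 in CD73ko tMCAO mice and from 1.93 to 3.65 in flox tMCAO mice.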

How the data were processed

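The series value table deposited by the authors holds unnormalised counts of 770 genes and of 14 control probes (8 negative, 6 positive) in each mouse; how the authors made the counts is not given in the sources used here. A further 2 deposited tables of normalised values were not used, except that their gene names served to identify the 13 housekeeping genes: 11 sample names in each match no label. Groups came from the labels, 4 mice each, every mouse a separate sample.

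The 757 endogenous genes were tested with edgeR 4.0.16 (R 4.3.3): TMM scaling, 1 coefficient per group over all 12 mice, quasi-likelihood F test, Benjamini-Hochberg adjustment over 757 genes at 0.05. Adjusted p-values come from edgeR where no tool is given. The absolute log2 fold change divided by the root of F gave the standard error, and 95% intervals took 14.4 degrees of freedom. The background limit of a library is the mean of its negative probes plus 2 SD; in 3 or more mice of 1 group or another, 712 genes exceeded it and 45 did not. Where fewer than 3 sham mice exceeded it, each sham count was raised to the limit and the fold is a lower bound on the log2(count + 1) scale. Median standard errors were 0.221 for the 253 genes of lowest level and 0.0715 for the 252 of highest level. No 2 libraries of the same group agreed within counting noise (smallest chi-square per degree of freedom 1.76). On simulated counts for this comparison with 757 genes, 79 of 100 genes changed 1.5-fold and 89 of 100 changed 2-fold were recovered. There were 5 false calls among 557 unchanged genes. Recovery of folds below 1.5 was not tested, and the genes that fell had a median log2 fold change of -0.255. Simulated counts with more and larger rises than falls, as in the calls of this comparison, were not tested.

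Genes named were the 15 highest and 15 lowest log2 fold changes among called genes without overlap, the 5 called genes of widest spread in CD73ko tMCAO mice, the 5 smallest p-values against flox tMCAO mice, and up to 4 called members of each of 32 gene lists, of which 31 had measured members; some of these genes are not reported here. The members and lists were chosen with earlier results of these data known. Alternatives were 3 scalings, DESeq2 1.42.0, limma 3.58.1, filters on low counts, only the 2 groups, a replicate block, a threshold of 0.01 and each mouse left out.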

Additional observations from a re-analysis of the deposited data

Results flagged for a closer look

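Single mice were checked against the other three of their group for the total count, the named genes and the list means, 242 groups of 4 values in all; a Dixon test at the 95% level singled out 14, and chance singles out about 1 in 20. The total count of flox sham replicate 4 was 293589, far below the other sham libraries. The same sham mouse stood apart with the highest sham normalised count of Gfap (1199), Vim (606), Irf8 (15.2), Csf1 (309) and Unc80 (1428). Without it the log2 fold changes of CD73ko tMCAO over sham mice were 2.30 for Gfap and 2.02 for Vim, against 2.20 and 1.93 with it. Flox sham replicate 1 stood apart for Csf3r (30.1), above the other three. Flox sham replicate 3 had the lowest cytokine and chemokine list mean, at -0.2713 from the sham mean on the log2 scale.

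Among CD73ko tMCAO mice, replicate 1 stood below the others for Hmox1 (76.9 normalised counts), for Tspo (32.8) and for the mean of the haem, NADPH oxidase and antioxidant list (0.6726 above sham). Replicate 3 stood below the others for Cntnap1 (538) and Camk4 (643), and above them for the purine list mean (0.5239 above sham).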

How the results depend on the processing

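The number of genes higher in CD73ko tMCAO mice than in sham mice (122) was between 101 and 126 under the alternatives other than a threshold of 0.01 (89), and between 95 and 130 when 1 mouse was left out; that of at least 2-fold rises (70) was between 64 and 70, and between 63 and 72 with 1 mouse left out. The number of lower genes (50) was less steady: it was 76 with DESeq2's size factors, 119 with median scaling, 117 with housekeeping scaling, 92 with DESeq2's test, 80 with filterByExpr, 72 with only genes above background, 37 with only the 2 groups and 10 at a threshold of 0.01, and it ranged from 15 to 99 when 1 mouse was left out. Median and housekeeping scaling moved the log2 fold changes by a median of -0.0827 and -0.0919. The genes called in flox tMCAO against sham mice (167) numbered 96 at a threshold of 0.01 and 125 to 206 with 1 mouse left out. With the replicate block 111 genes were higher and 35 lower, and 6 of the 94 named genes lost their call (Camk4, Ms4a4a, Axl, Cspg4, Bcas1 and Jun); the numbers do not pair the mice (deviations of same-numbered CD73ko and sham mice correlated at -0.248 to 0.0513, and 2 of 8 mice correlated best with their own number). Of 1702 values of named genes under alternatives, 1562 kept their side of the threshold, 136 lost the call, 4 gained it and none changed direction. For genes below background in sham mice the fold is a bound, and flox sham replicate 4 has the lowest depth.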

Other observations

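Of the 172 genes that passed in CD73ko tMCAO mice against sham mice, 61 were in none of the gene lists, 24 higher and 37 lower. The genes named here were chosen after their values were seen. Hpgds, the prostaglandin D synthase of microglia and mast cells, counted 84.4, 111, 132 and 130.0 in CD73ko tMCAO mice, against 41.7, 46.6, 38.8 and 55.8 in sham mice (log2 fold change 1.36 ± 0.17, SE, n = 4 each, edgeR's adjusted p = 2.2e-05). Klk6, a secreted protease of oligodendrocytes, counted 289.6, 355, 529 and 503 in CD73ko tMCAO mice, against 168, 161, 175 and 147 in sham mice (1.35 ± 0.23, adjusted p = 0.000552). Nes, the filament protein nestin of progenitors and reactive astrocytes, counted 75, 104, 141 and 113 in CD73ko tMCAO mice, against 58.5, 42.9, 53.2 and 58.3 in sham mice (1.04 ± 0.19, adjusted p = 0.000888). Chil1, a secreted chitinase-like protein of reactive astrocytes, counted 116, 140.0, 184 and 189 in CD73ko tMCAO mice, against 82.4, 85.8, 78.5 and 104 in sham mice (0.87 ± 0.16, adjusted p = 0.00075).

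Gsn and Tmsb4x, both of which encode actin-binding proteins, were among the 24 rises outside the lists. Gsn, gelsolin, counted 661, 694, 719.7 and 743 in CD73ko tMCAO mice, against 512, 507, 452 and 492 in sham mice (0.52 ± 0.06, adjusted p = 2.46e-05). Tmsb4x, the gene of thymosin β4, counted 20065, 22035, 24803 and 26807 in CD73ko tMCAO mice, against 13048, 12551, 15525 and 17308 in sham mice (0.68 ± 0.11, adjusted p = 0.000183). The 37 falls outside the lists included the neuronal genes Wasf1, a regulator of actin at synapses (-0.25 ± 0.07, adjusted p = 0.0126), and Atp2b2, a calcium pump of neurons (-0.27 ± 0.07, adjusted p = 0.00885). In Wasf1 the groups did not overlap, and in Atp2b2 they did.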
